A study of Mus musculus with 8 samples.

Results

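The genes described here are the potassium channel genes, as measured in dissected lateral ganglionic eminence (LGE) of the mouse, where the projection neurons of the striatum are born. They were taken by symbol, as every gene whose name begins with Kcn followed by letters and a number. Kcnj8, a pericyte marker, was left out. The rule found 83 of the 15705 genes in the deposited table, and all 83 passed the filter on low values. Of these, 80 are protein-coding, and 3 are noncoding transcripts that share the name of a channel gene (Kcnd3os, Kcnmb4os2 and Kcnq1ot1).

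Poly(A) RNA was sequenced from embryos at E18.5. The 4 control libraries came from embryos labelled Isl1 flx/flx, and the 4 conditional knockout (cKO) libraries from embryos labelled Dlx1-Cre; Isl1 flx/flx. Both groups therefore carry floxed alleles of Isl1, a LIM-homeodomain transcription factor gene of striatal neurons, and the cKO alone carries Cre, driven by Dlx1, which is active in progenitors and young neurons of the ventral forebrain. The effects of Cre and of the deletion cannot be told apart in this design. The labels call the controls littermates but give neither the litter nor the sex of a library.

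Potassium channels let potassium leave the cell, which sets the resting potential, ends action potentials and limits firing. Voltage-gated (Kv) channels open on depolarisation, inward rectifiers (Kir) hold the cell near rest, and tandem-pore (K2P) channels carry leak current. Calcium-activated and sodium-activated channels follow the ions that enter during firing. Pore-forming subunits assemble as tetramers, or as dimers in the K2P family, with auxiliary subunits that alter gating and delivery to the membrane. Mature striatal projection neurons are known for strong Kir current and for A-type current carried by the Kv4 family, which hold them silent between bursts of input.

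Isl1 itself did not fall. Its values were 3777, 3692, 4186 and 3517 in the control libraries and 4930, 5377, 5618 and 5971 in those labelled cKO (log2 fold change 0.53 ± 0.06 SE, limma adjusted p = 0.000338). These are gene-level values, and which exons lie between the loxP sites is not stated in the labels, so Isl1 does not check the labels. Control and cKO below mean the libraries so labelled. The deposited values are scaled, adjusted and rounded, so their sums per library (23732455 to 24456923) are no measure of read number, and depth is unknown.

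Of the 83 potassium channel genes, 12 fell and 6 rose in the cKO, together 18 or 21.7%, against 6.66% of the 15698 genes tested (limma moderated test on log2(value + 1), Benjamini-Hochberg adjusted p under 0.05 over all genes tested). Over all genes, 3.78% fell and 2.87% rose, against 14.5% and 7.23% of the channel genes. Control and cKO libraries were fully apart for 20 of the 83 (24.1%), and for 12.7% of all genes. The median log2 fold change of the channel genes was -0.06, and that of all genes was 0.01. Most changes were moderate, and 4 of the 18 reached a size of 1 on the log2 scale, namely Kcnj5, Kcnk9, Kcnc4 and Kcnip2.

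The deposited values lack a factor that was removed from them, which narrows the spread within groups, and 14 of the 18 passed when the model was charged for it. The count of channel genes called lay between 13 and 16 when 1 library was left out, and the count that rose dropped from 6 to 3 without control replicate 3 or cKO replicate 2. In 11 of the 18 (Kcnj5, Kcnip2, Kcnf1, Kcnh1, Kcnd2, Kcnk9, Kcnc4, Kcna1, Kcnh3, Kcnt1 and Kcna3) the call held in each of the 18 alternative analyses run, or 17 for Kcnk9, which a stricter filter removed.

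**Figure D1:**
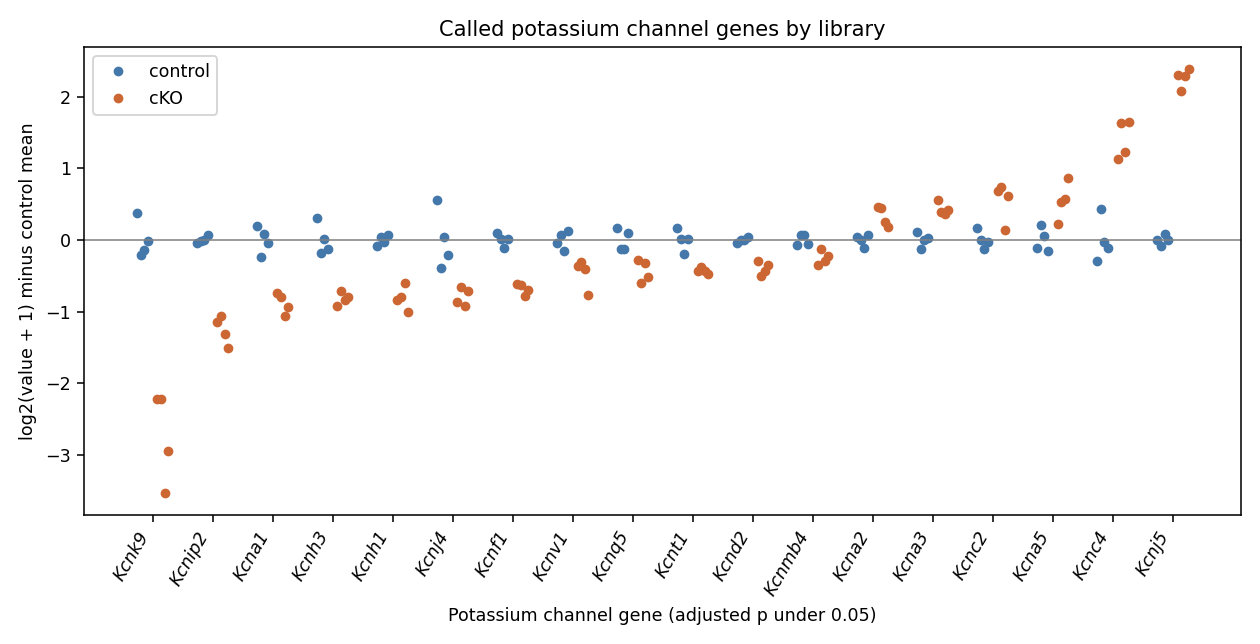
The 18 called potassium channel genes, ordered by fold change. Each point is 1 library, plotted as log2(value + 1) minus the mean of the 4 control libraries (blue control, orange cKO). Kcnk9 lies lowest and Kcnj5 highest in the cKO, and the groups overlap in 1 of the 18, Kcnc2.

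Most of the channel genes were expressed at a low to moderate level. In deposited RPKM, which allow for gene length, 52 of the 83 had a control mean of at least 1 and 8 had at least 10. Among the most abundant was Kcnmb4, an auxiliary subunit of large-conductance calcium-activated (BK) channels, at a control mean of 25.7 ± 1.01 RPKM (SD, n = 4). Kcne1l stood at 22.7 ± 1.08 and Kcnk2, a stretch-sensitive leak channel gene, at 20.3 ± 0.493. Kcnk2 did not pass the test, with a log2 fold change of -0.04 (95% interval -0.14 to 0.05). Of the 18 genes called, 13 had a control mean of at least 1 RPKM and 5 were below it. The RPKM of all 83 genes summed to 335.7 ± 7.72 in the controls and 312 ± 4.69 in the cKO, and the 4 cKO sums lay below the 4 control sums.

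**Figure D2:**
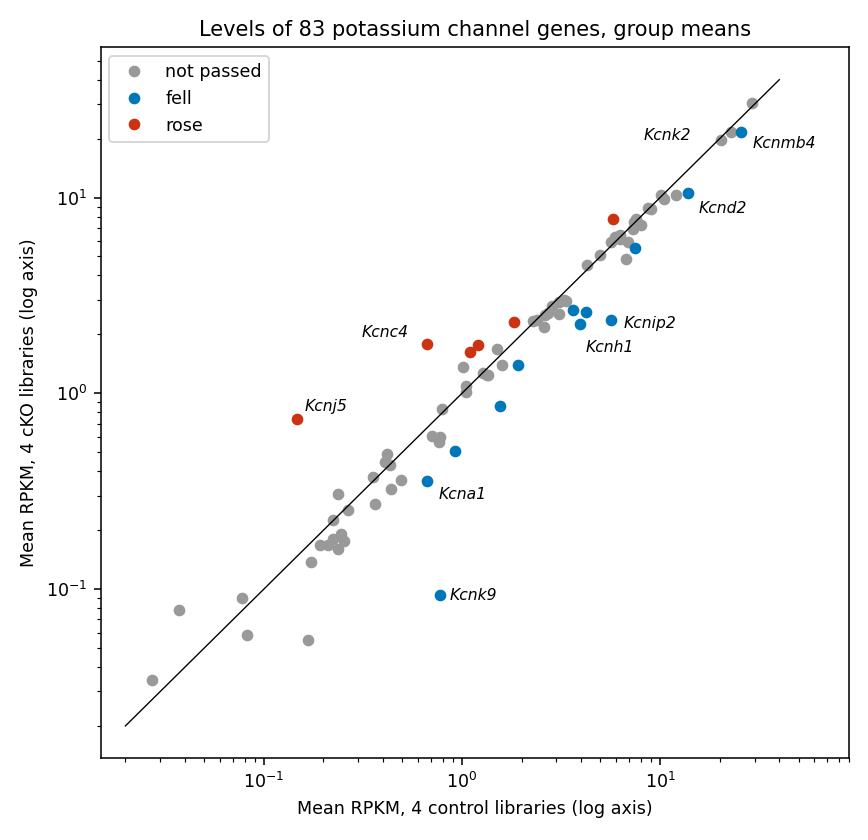
Mean RPKM of the 83 potassium channel genes in the 4 control libraries (horizontal, log axis) and the 4 cKO libraries (vertical, log axis), with the line of equality. Red points rose and blue points fell by the test on log2(value + 1). Kcnj5 and Kcnc4 stand above the line and Kcnk9 below it, while Kcnk2 lies near it.

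Among the pore-forming Kv genes, 5 of 28 fell and 5 rose. The A-type channel gene Kcnd2, which encodes a Kv4 subunit of the neuronal dendrite, fell together with its auxiliary subunit gene Kcnip2. Kcnd2 read 1483, 1517, 1527 and 1572 in the controls and 1240, 1070, 1125 and 1196 in the cKO. All 4 cKO libraries were lower, with a log2 fold change of -0.40 ± 0.05 (SE) and a limma adjusted p of 0.000433. The related Kcnd3 went from a mean of 1770 to 1810 and had a log2 fold change of 0.03 (95% interval -0.09 to 0.15), and Kcnd1 of -0.11 (-0.33 to 0.12), neither past the test. Within each library, the ratio of Kcnd2 RPKM to Kcnd3 RPKM was 1.26 to 1.44 in the controls and 0.968 to 1.09 in the cKO, so that their levels became nearly equal.

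Kcnip2 encodes a calcium-binding KChIP protein that brings Kv4 channels to the surface. Its values were 331, 338, 340 and 358 in the controls and 154, 163, 137 and 120 in the cKO, 2.38-fold lower between the means (log2 fold change -1.26 ± 0.10, limma adjusted p = 1.1e-05). The highest cKO library reached less than the lowest control by a wide gap. The other KChIP genes did not pass: Kcnip1, Kcnip3 and Kcnip4 had log2 fold changes of 0.05, 0.08 and -0.03. Kcnip2 RPKM per unit of Kcnd2 RPKM was 0.409 ± 0.00444 in the controls and 0.228 ± 0.0389 in the cKO (SD, n = 4), so the fall of the auxiliary gene was the larger of the pair.

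The ether-a-go-go (Kcnh) family held 2 genes that fell, out of 8. Kcnh1, whose channel activates slowly and shapes excitability, read 651, 710, 675 and 726 in the controls and 385, 398, 456 and 343 in the cKO (log2 fold change -0.81 ± 0.08, limma adjusted p = 7.95e-05). Kcnh3, a subunit of the Elk branch found mainly in forebrain, read 164, 117, 134 and 122 against 70, 81, 74 and 76 (-0.82 ± 0.12, limma adjusted p = 0.00156). The cKO mean was 0.573 of the control mean for Kcnh1 and 0.561 for Kcnh3, and the groups of both were apart. Kcnh4, an Elk gene of the striatum at 12.1 RPKM in the controls, had a log2 fold change of -0.22 (95% interval -0.41 to -0.04) and an adjusted p of 0.16 in limma. Kcnh2, the gene of the hERG channel, was at 0.02 (-0.11 to 0.16).

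Of 5 genes of the Kcnq family, 1 fell, Kcnq5, a subunit of channels that carry M-type current under muscarinic control. Its values ran from 612 to 751 in the controls and from 442 to 550 in the cKO, without overlap (log2 fold change -0.43 ± 0.09, limma adjusted p = 0.0134). The call did not hold without the mean trend (adjusted p = 0.0579) or without control replicate 3 and cKO replicate 4 together (0.0554). Its partner Kcnq3 had a log2 fold change of -0.04 (95% interval -0.25 to 0.17).

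The Kv1 (Kcna) family moved in both directions, with 1 of 6 genes lower and 3 higher. Kcna1, whose low-threshold channel sits along axons, read 164, 121, 152 and 139 in the controls and 85, 82, 68 and 74 in the cKO (log2 fold change -0.89 ± 0.12, limma adjusted p = 0.000871). Kcna2, which assembles with Kcna1 in axons, ran from 475 to 538 in the controls and from 585 to 706 in the cKO (0.34 ± 0.07, adjusted p = 0.0171). Kcna1 was thus lower and Kcna2 higher in each cKO library than in any control. Kcna2 no longer passed in limma without control replicate 3 (adjusted p = 0.0527), without cKO replicate 2 (0.0585), without the mean trend (0.055) or with deposited RPKM (0.093). Kcna5, best known from heart muscle, ran from 78 to 101 in the controls and from 102 to 160 in the cKO (0.55 ± 0.14, adjusted p = 0.0432). Leaving out any 1 library other than control replicate 2 or cKO replicate 1 ended the Kcna5 call, with adjusted p of 0.0779 to 0.14. Kcna4 and Kcna6 did not pass, at log2 fold changes of -0.05 and -0.10. Of the summed RPKM of the 6 Kcna genes, Kcna1 made up 2.93 ± 0.317% in the controls and 1.45 ± 0.123% in the cKO (SD, n = 4).

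Kcna3, a channel gene of lymphocytes and microglia as well as neurons, rose from 295, 249, 273 and 277 to 403, 359, 350 and 364 (log2 fold change 0.43 ± 0.07, limma adjusted p = 0.00384). The groups did not overlap. Microglial markers rose in the same libraries: 10 of 12 passed and none fell, and their summed level was 52.1 to 59.4 RPKM in the controls and 83.6 to 99.6 in the cKO, with no marker at 0. Kcnk13, which encodes the main leak channel of microglia, had a log2 fold change of -0.40 (95% interval -0.87 to 0.07) and did not pass. The part of microglia in the Kcna3 result was not tested. In bulk tissue, a change in the number of cells of a type and a change in RNA per cell cannot be told apart, for this gene as for the others.

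Of 4 Kv3 (Kcnc) genes, whose channels close quickly and permit fast firing, 2 rose. Kcnc4 read 39, 65, 47 and 44 in the controls and 106, 150, 113 and 152 in the cKO, 2.67-fold higher between the means (log2 fold change 1.41 ± 0.18, limma adjusted p = 0.000493). Each cKO library was well above the highest control. Kcnc2 ran from 150 to 184 in the controls and from 181 to 276 in the cKO (0.54 ± 0.13, adjusted p = 0.0269), with cKO replicate 3 inside the control range. Leaving out control replicate 3 or 4, or cKO replicate 1, 2 or 4, ended that call (limma adjusted p of 0.0603 to 0.0853). Kcnc1, the family's most abundant member at 7.61 RPKM in the controls, had a log2 fold change of -0.02 (95% interval -0.12 to 0.07).

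Silent Kv subunits form no channel alone and alter the Kv2 channels they join. Of 8 such genes, 2 fell. Kcnf1 read 521, 490, 449 and 494 in the controls and 317, 316, 282 and 299 in the cKO (log2 fold change -0.68 ± 0.07, limma adjusted p = 6.72e-05). Kcnv1 ran from 186 to 227 against 122 to 167 (-0.46 ± 0.11, adjusted p = 0.0304). Both sets of libraries were apart, but Kcnv1 did not pass once control replicate 1, 2 or 4, or cKO replicate 3 or 4, was left out (limma adjusted p of 0.0544 to 0.112). Kcnb2, a Kv2 pore gene, did not pass, with a log2 fold change of -0.003 (95% interval -0.19 to 0.18). Kcng1, the most abundant silent subunit at 5.0 RPKM in the controls, was at 0.04 (-0.29 to 0.36).

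Of 11 auxiliary Kv genes, Kcnip2 was the only one called. Kcnab1, a beta subunit that speeds inactivation of Kv1 channels, went from 562.8 ± 102.5 to 407 ± 51.3 (SD, n = 4), with overlapping groups (log2 fold change -0.46, limma adjusted p = 0.0546). It passed in the authors' deposited table (adjusted p = 0.0168). Kcne1l, a single-span regulator, had a log2 fold change of -0.06 (95% interval -0.20 to 0.08). Kcne2, a channel subunit of the choroid plexus, was at 21 in control replicate 1 and at 0 to 5 in the other 7 libraries. The same control library held 3462 of the choroid plexus marker Ttr, against 17 to 141 elsewhere, and 16 of Folr1, against 1 to 5. Of the 5 tested choroid plexus and ependymal markers, Clic6 was also highest there, at 108 against 61 to 83. Aqp1 was not, at 28 there and 45 in control replicate 3. Nor was Foxj1, at 531 there and 514 to 643 in the cKO. The part of choroid plexus in the Kcne2 values was not tested. Kcne2 did not pass in limma (adjusted p = 0.611) but did in the authors' deposited table (0.0454).

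**Figure D3:**
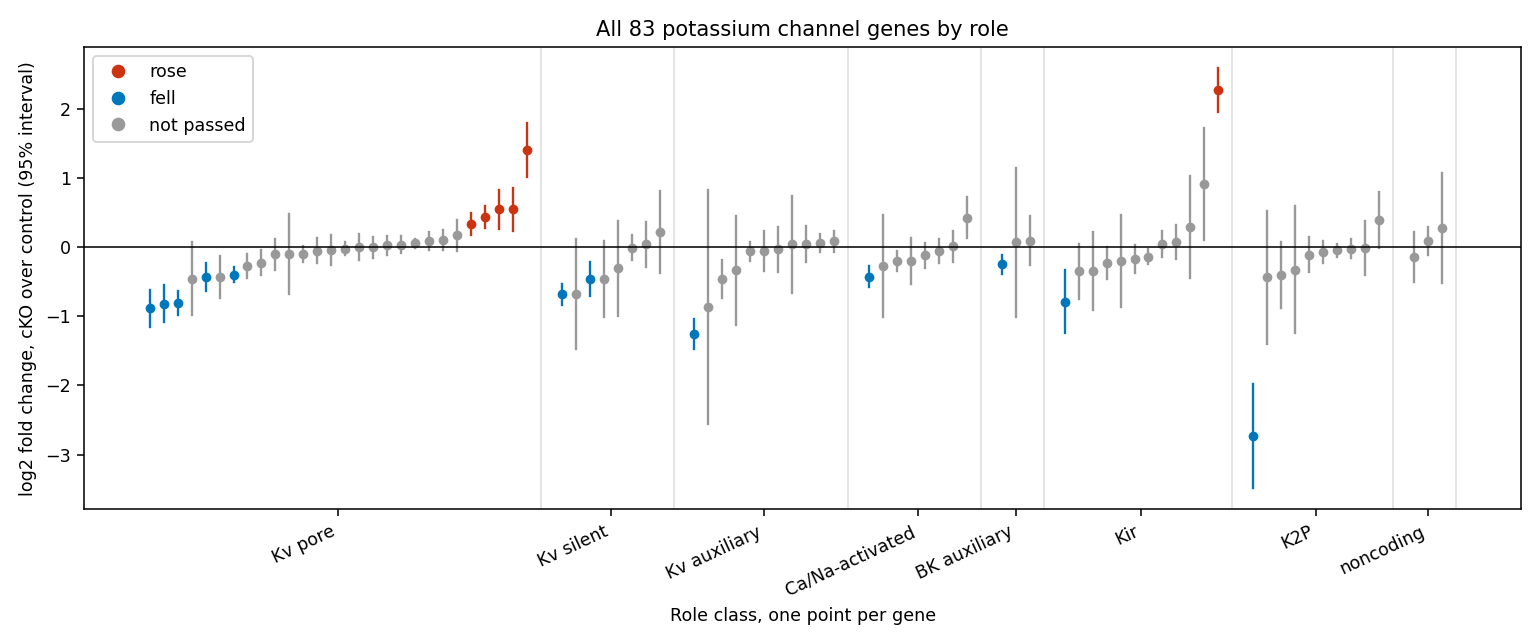
Log2 fold change (cKO over control) of all 83 potassium channel genes with the 95% interval of the limma fit, grouped by role and ordered within each group. Red rose, blue fell, grey did not pass. Rises are in the Kv pore and Kir classes, and falls are in every class except the noncoding transcripts.

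The largest rise among the channel genes was that of Kcnj5, a subunit of the Kir3 (GIRK) channels that open when a Gi/o-coupled receptor releases its G protein. Kcnj5 read 16, 15, 17 and 16 in the controls and 83, 71, 82 and 88 in the cKO. The control libraries differed by no more than 2, and the lowest cKO library was at over 4 times the highest control. The log2 fold change was 2.27 ± 0.14 (SE; limma adjusted p = 2.57e-06), 5.06-fold between the means. Its p was 0.0286 by exact permutation (two-sided), the smallest that 4 against 4 libraries can give. Every gene whose groups are fully apart has this same p. The level stayed low, with a control mean of 0.147 ± 0.00782 RPKM and a cKO mean of 0.742 ± 0.0633 RPKM (SD, n = 4).

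The other Kir3 genes did not pass the test. Kcnj9, the most abundant of them here, had a mean of 2.29 RPKM in the controls and 2.35 in the cKO (log2 fold change 0.04, 95% interval -0.15 to 0.23). Kcnj3, with which Kcnj5 forms the atrial channel of the heart, had a log2 fold change of -0.35 (-0.75 to 0.05). Kcnj6, at values of 4 to 9 in the controls and 7 to 20 in the cKO, was at 0.91 (0.10 to 1.73, adjusted p = 0.202). Kcnj5 made up 3.76 to 5.18% of the summed Kir3 RPKM in the controls and 17.9 to 21.1% in the cKO, while the sum itself went from 3.25 ± 0.302 to 3.76 ± 0.213 (SD, n = 4) with overlapping groups.

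**Figure D4:**
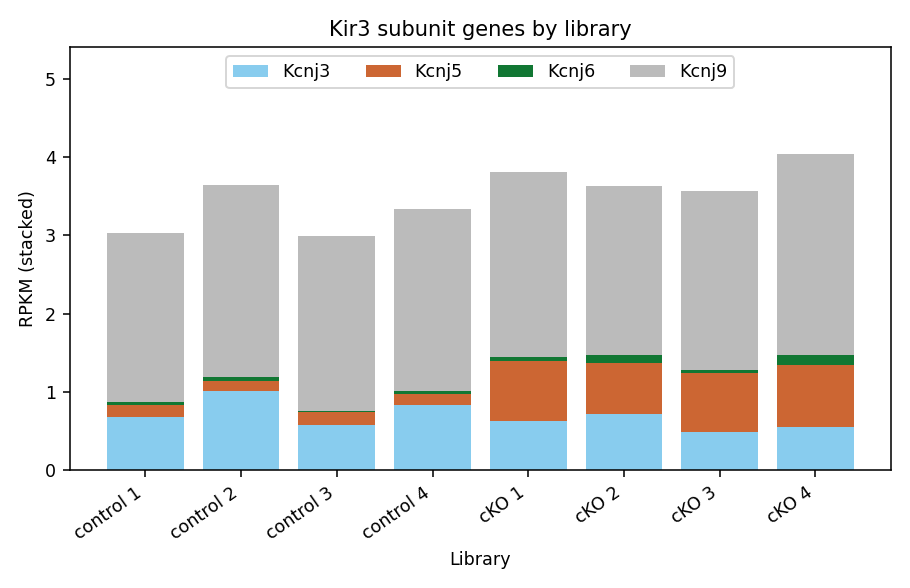
RPKM of the Kir3 subunit genes Kcnj3, Kcnj5, Kcnj6 and Kcnj9 stacked for each of the 8 libraries. The Kcnj5 share is 17.9 to 21.1% in the cKO libraries and 3.76 to 5.18% in the controls.

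Of the Kir2 genes, whose strong inward rectifiers hold striatal projection neurons near rest, Kcnj4 fell. It read 69, 35, 48 and 40 in the controls and 25, 29, 24 and 28 in the cKO (log2 fold change -0.79 ± 0.21, limma adjusted p = 0.0439). Control replicate 1 was the highest, and the groups did not overlap. The call was lost when any 1 library other than control replicate 2 was left out (adjusted p of 0.076 to 0.0983). Kcnj12 had a log2 fold change of -0.18 (95% interval -0.38 to 0.03) and Kcnj2 of 0.07 (-0.17 to 0.32). Kcnj14, a further Kir2 gene, did not pass either, at -0.20 (-0.87 to 0.47). Kcnj10 and Kcnj16, Kir genes of glia, had log2 fold changes of -0.14 (adjusted p = 0.142) and -0.34 (adjusted p = 0.54). Of 8 astrocyte and radial glia markers and 7 oligodendrocyte markers, none passed.

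In the K2P family, 1 of 10 genes was called. Kcnk9, the gene of an acid-sensitive leak channel (TASK), fell from 29, 19, 20 and 22 in the controls to 4, 4, 1 and 2 in the cKO. It was nearly absent from each cKO library, 8.18-fold lower between the means (log2 fold change -2.73 ± 0.34, limma adjusted p = 0.000477). At such values the size of the change is imprecise, with a 95% interval of -3.48 to -1.97. Kcnk3, its close paralog, was at a log2 fold change of -0.11 (-0.36 to 0.14), and the ratio of Kcnk9 RPKM to Kcnk3 RPKM went from 0.577 ± 0.134 to 0.0739 ± 0.039 (SD, n = 4). Kcnk10 and Kcnk1 were at -0.02 and -0.07.

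Among the 8 pore genes of the calcium- and sodium-activated family, in which Kcnu1 was counted as a relative, Kcnt1 fell. It encodes the sodium-activated Slack channel and read 1264, 1133, 979 and 1133 in the controls and 831, 867, 832 and 809 in the cKO (log2 fold change -0.43 ± 0.07, limma adjusted p = 0.00229). Its paralog Kcnt2 ran the other way, with 79 to 109 in the controls and 114 to 147 in the cKO. That difference (0.42 ± 0.14) did not pass in limma (adjusted p = 0.0992) and passed in the authors' deposited table (0.0204). None of the 4 Kcnn genes of small- and intermediate-conductance channels passed. Kcnn1, the most abundant of them, was at 0.01 (95% interval -0.21 to 0.24) and Kcnn2 at -0.21 (-0.35 to -0.06). The BK pore gene Kcnma1 was at -0.12 (-0.30 to 0.06).

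Kcnmb4, the abundant BK auxiliary gene, ran from 594 to 652 in the controls and from 490 to 569 in the cKO (log2 fold change -0.25 ± 0.06, limma adjusted p = 0.032). The groups were close but did not overlap. It did not hold after removal of control replicate 2, 3 or 4, or of cKO replicate 1, 3 or 4 (limma adjusted p of 0.0658 to 0.0905). In the authors' deposited table Kcnmb4 had an adjusted p of 0.0609. Kcnmb4os2, an antisense transcript that shares 693 exon bases with Kcnmb4, had a log2 fold change of -0.14 (95% interval -0.51 to 0.22). The labels do not say whether counting used strand. Values of this pair are therefore uncertain, as are those of other genes with exons opposite another transcript. Examples are Kcnq5 (237 bases shared with Gm26580), Kcnd3 with Kcnd3os, and Kcnq1 with Kcnq1ot1. Kcna6 shares 2355 exon bases with Gm26673, Kcnj3 1621 with Gm26794 and Kcnk2 604 with A430027H14Rik, each on the opposite strand. Kcna6 and Kcnj3 enter the Kcna and Kir3 sums above.

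Of the 65 channel genes that did not pass, 39 had a 95% interval within 0.5 of 0 on the log2 scale. The other 26 had wider intervals, which hold changes of that size, and 23 of these were below 1 RPKM in the controls.

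Some called genes lay within 1 Mb of another called channel gene, in 2 runs (GENCODE coordinates on GRCm38, also called mm10). Other channel genes also lie close together without a call. Among them are Kcnj9 and Kcnj10, 11.9 kb apart, and Kcnj16 and Kcnj2, 38.2 kb apart. On chromosome 3, Kcna3 (107036169 to 107038070, plus strand), Kcna2 (107101146 to 107115005, plus strand) and Kcnc4 (107438303 to 107459552, minus strand) all rose. Between Kcna3 and Kcna2, the lincRNA gene AI504432 (107039504 to 107054347, plus strand) also rose, by 0.37 ± 0.05 (limma adjusted p = 0.000703). The 3 tested genes between Kcna2 and Kcnc4 did not pass, with log2 fold changes of 0.01 for Lamtor5, -0.03 for Slc16a4 and 0.17 for Rbm15. Slc6a17, next after Kcnc4, fell by 0.17, with an adjusted p of 0.0324 in limma. On the other side of Kcna3, Cd53, a leukocyte membrane protein gene, rose by 0.92 ± 0.17 (adjusted p = 0.00647).

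On chromosome 6, neighbouring channel genes moved in opposite directions. Kcna5 (126532551 to 126535412, minus strand) rose and Kcna1 (126640397 to 126646384, minus strand), 105 kb away, fell. Kcna6 (126708329 to 126740674, minus strand), a further 61.9 kb along, had a log2 fold change of -0.10 and did not pass (limma adjusted p = 0.364). Both runs and their neighbours were chosen with these values known.

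**Figure D5:**
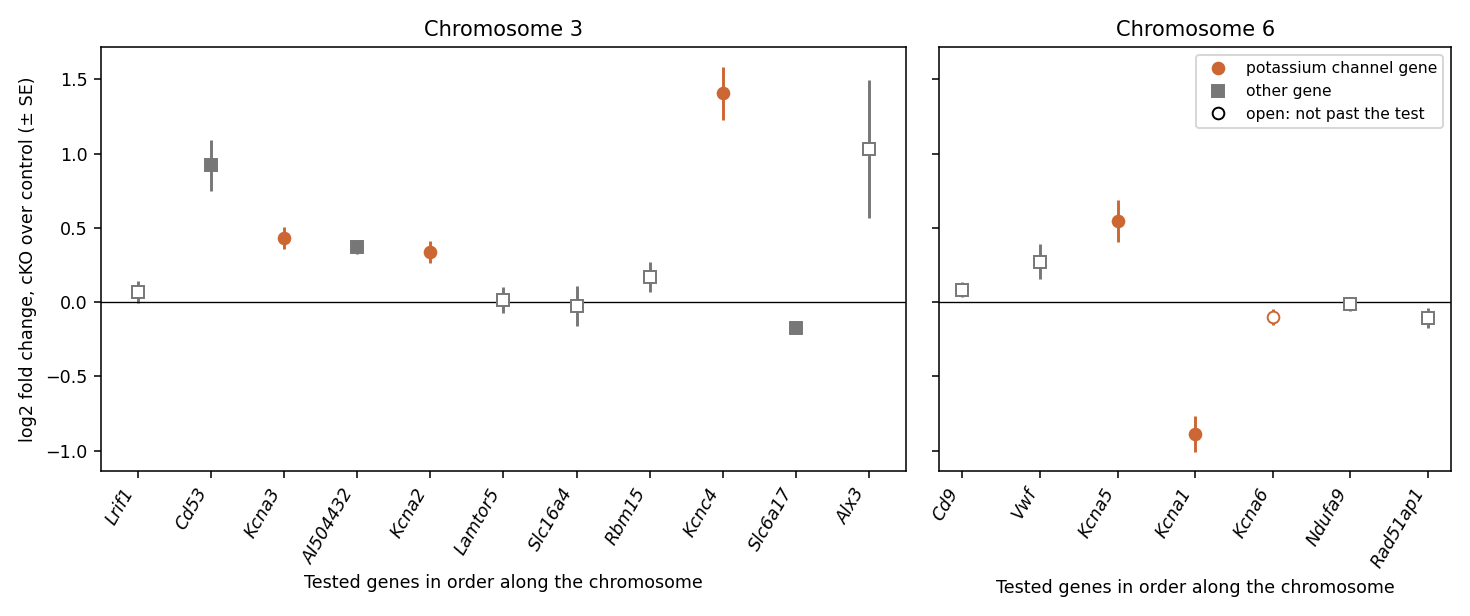
Log2 fold change (cKO over control, ± SE) of tested genes in their order along chromosome 3 (left, around Kcna3, Kcna2 and Kcnc4) and chromosome 6 (right, around Kcna5, Kcna1 and Kcna6). Filled points passed the test and open points did not. The 3 channel genes on the left lie above 0 with genes near 0 between Kcna2 and Kcnc4, and on the right Kcna5 is above 0 and Kcna1 below it.

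Isl1, like other LIM-homeodomain proteins, binds DNA at sites with a TAAT core, so the sequence before the start of the 3 channel genes with the smallest p is shown. Each line gives 250 bases upstream of the RefSeq start (GRCm38.p6), with any TAAT, on either strand (ATTA), in capitals. The windows are chr9:32344345-32344594 for Kcnj5, chr19:45816064-45816313 for Kcnip2 and chr12:17176889-17177138 for Kcnf1, all on the minus strand.
Kcnj5: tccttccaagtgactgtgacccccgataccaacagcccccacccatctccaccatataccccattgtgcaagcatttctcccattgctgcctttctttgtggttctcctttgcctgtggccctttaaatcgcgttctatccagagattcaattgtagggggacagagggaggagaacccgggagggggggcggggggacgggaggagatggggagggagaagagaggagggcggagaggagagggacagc
Kcnip2: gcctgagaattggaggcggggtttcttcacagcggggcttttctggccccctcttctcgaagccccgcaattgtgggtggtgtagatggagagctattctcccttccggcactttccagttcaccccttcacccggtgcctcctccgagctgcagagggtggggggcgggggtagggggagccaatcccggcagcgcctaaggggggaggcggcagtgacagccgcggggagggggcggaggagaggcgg
Kcnf1: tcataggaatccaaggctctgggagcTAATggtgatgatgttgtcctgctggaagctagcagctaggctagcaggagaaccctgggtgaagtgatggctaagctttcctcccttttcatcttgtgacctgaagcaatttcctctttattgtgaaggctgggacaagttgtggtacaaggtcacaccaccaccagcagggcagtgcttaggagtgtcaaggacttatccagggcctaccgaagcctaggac
The Kcnf1 window holds 1 match and the other two hold none. Among the 13 called genes matched in the RefSeq table, 2 of the 6 that rose and 2 of the 7 that fell had a match, and 27 of the 60 matched channel genes (45.0%) did. The share was 54.9% of all 32851 windows of that length. These were not limited to 1 window per gene, as those of the channel genes were. A match to these letters is a description of the sequence, and binding was not measured.

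Genes that act with potassium channels but lie outside the Kcn names also changed in part. Of 8 Kv partner genes, 1 rose and none fell. This was Dpp10, whose product speeds Kv4 gating, with 264, 382, 317 and 285 in the controls and 437, 595, 512 and 602 in the cKO (log2 fold change 0.78 ± 0.13, limma adjusted p = 0.00249). Its paralog Dpp6, the main Kv4 partner in many neurons, was at -0.05 and did not pass. Among genes of the cation channels that open on hyperpolarisation, Hcn4 fell (-0.26 ± 0.05, limma adjusted p = 0.00378). None of the 2 sulfonylurea receptor genes passed, nor did Lrrc55, the 1 of 4 BK gamma subunit genes in the table. Of 11 genes of potassium transport, the potassium-chloride cotransporter genes Slc12a5 and Slc12a7 rose, each by 0.24 ± 0.06 (limma adjusted p of 0.0284 and 0.0266). Of the 18 alternative analyses, 8 ended the Slc12a5 call, among them leaving out control replicate 1 or cKO replicate 2, 3 or 4, and 10 ended the Slc12a7 call, among them leaving out control replicate 2 or 4 or cKO replicate 1, 2 or 4. The lost calls had adjusted p of 0.0551 to 0.116 for Slc12a5 and 0.0554 to 0.088 for Slc12a7.

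Of 19 Gi/o-coupled receptor genes, whose products can open Kir3 channels, 4 fell and 3 rose. Those that fell were Htr1b (-1.21 ± 0.16), Chrm4 (-1.05 ± 0.15), Oprm1 (-1.04 ± 0.19) and Adora1 (-0.24 ± 0.04), with a largest limma adjusted p of 0.00594. Chrm2, the muscarinic receptor gene whose product opens Kir3 channels in the heart, rose by 0.63 ± 0.10, the cannabinoid receptor gene Cnr1 by 0.40 ± 0.05 and Drd2 by 0.20 ± 0.05 (limma adjusted p = 0.0367). The Drd2 call ended in 12 of the 18 alternatives, with adjusted p of 0.0544 to 0.122, including median-of-ratios scaling and the removal of control replicate 2 or 4 or any 1 cKO library. Of 8 Gq-coupled receptor genes, whose products close M-type channels, Chrm3 rose by 1.69 ± 0.19 and Grm5 by 0.16 ± 0.04 (adjusted p = 0.0387), and the histamine receptor gene Hrh1 fell by 1.02 ± 0.22 on the log2 scale. Grm5 did not pass in 12 of the 18 alternatives (adjusted p of 0.0551 to 0.174), including median-of-ratios scaling and the removal of any 1 control library or of cKO replicate 1 or 3. Hrh1 did not pass without cKO replicate 2 (adjusted p = 0.0554).

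Marker genes of the LGE were abundant in all 8 libraries, at a summed 989.7 to 1150 RPKM over 12 genes, of which 2 fell and 5 rose. Markers of some neurons moved with the channel genes that fell. Of 8 striatonigral markers, 5 fell, among them Chrm4, also counted as a receptor gene, and 1, Isl1, rose. Their sums were 231 to 251 RPKM in the controls and 167 to 182 in the cKO. These sums include Isl1, at means of 62.2 and 89.3 RPKM. Of 6 cholinergic markers, 5 fell, with sums of 8.27 to 13.8 and 3.32 to 7.16 RPKM. Of 6 striatopallidal markers 2 rose, among them Drd2, also counted as a receptor gene, with sums of 179 to 187 and 197 to 203 RPKM. No marker of these lists was at 0 throughout, and their part in the channel results was not tested. None of 10 pallial markers passed, but their sum was 11.7 to 20.4 RPKM in 6 libraries, 1.86 in the third control and 4.27 in the fourth cKO library. Without these 2 libraries, 14 of the 83 channel genes were called, 13 of them among the 18. None of 11 pericyte and endothelial markers passed, and the excluded Kcnj8 was at a log2 fold change of 0.04.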

How the data were processed

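The submitters' processing notes list STAR, featureCounts, edgeR and mm10 for the authors' handling of the reads (single, 85 bp, directional poly(A) libraries), without options. The deposited columns headed as raw hold a score: the authors' values have near-equal upper quartiles (1624 to 1635) and are whole numbers. Among 5711 genes averaging above 1000, a single direction across the libraries has almost no variation (SD 0.000241 in natural log, next smallest 0.0435). That trace of a removed factor is read from the values and stated nowhere. It narrows the spread within groups, so SEs and p-values may be too small, and no count model could be used. The deposited RPKM are the same values over their column sum and a fixed length per gene, as recomputation showed. The authors' own log2 fold changes and p-values, from the deposited table, have the sign of cKO over control and served as an alternative.

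Here log2(value + 1) was modelled with limma 3.58.1 (mean trend, R 4.3.3) for the 15698 genes that reached 1 in at least 4 libraries, with Benjamini-Hochberg adjustment. Fold changes on this scale understate those of low genes. Tissue was taken from each embryo, but no label says that a library is 1 embryo, so p-values measure the spread between these libraries. The code was tested on simulated data from which a simulated factor had been removed. How the real factor was removed is unknown, so the 2 may differ. Most changed genes were recovered, but the smallest change simulated was 0.5 on the log2 scale. Smaller changes, such as that of Kcnmb4, were not covered, nor were changes in genes of low mean value, such as Kcnk9. The share of false calls in the simulations was 11.3%, above the nominal threshold of 0.05. Counts of genes called may thus hold more false calls than the threshold states. An adjusted p just under 0.05 is weaker than it reads. Genes named by rule are the members that passed, Kir3 subunits, Kir2 subunits other than Kcnj14, and the most abundant member of each role class. The rule also named members with groups apart and a log2 fold change of at least 0.3 in size. Known glial and microglial members and passing genes of the other lists were named too. Further members complete a family and were added after their values were seen. The members and lists were chosen with earlier results of these data known. Alternatives covered pseudocount, filter, scaling, trend, replicate block, removed factor, left-out libraries and the authors' table. A few genes within this rule are not reported here.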

Additional observations from a re-analysis of the deposited data

Results flagged for a closer look

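In 198 groups of 4 libraries (99 genes, control and cKO), 6 had 1 library far from the other three by Dixon's criterion, which chance gives in about 1 in 20 groups. Control replicate 1 was the highest of the controls for Kcne2, at 21, and for Kcnk5, an acid-sensitive K2P gene of epithelia, at 42 against 32 to 33. Control replicate 2 was the highest for Kcnip1, at 547 against 398 to 414. In the cKO, replicate 3 was the highest for Kcnk1, at 434 against 367 to 377. Of the receptor genes, Chrm2 was lowest in cKO replicate 2, at 129, and Adora1 was highest in cKO replicate 1, at 1415. None of these 4 channel genes passed the test.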

How the results depend on the processing

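The count of channel genes called was 18 with a pseudocount of 10, without a filter, with median-of-ratios scaling and with the replicate block, 17 with the stricter filter, 14 with the missing direction charged to the model, 13 with deposited RPKM, 12 without the mean trend and 20 in the authors' deposited table, 17 of these among the 18. Those that rose numbered 3 with deposited RPKM and 3 without the mean trend. Leaving out 1 library gave 13 to 16 called, 9 to 12 lower and 3 to 6 higher. Over all genes, 1045 became 658 to 959 (402 to 557 lower, 256 to 414 higher) on leaving out 1 library, 610 without control replicate 3 and cKO replicate 4 (394 lower, 216 higher), and 290 rose with the missing direction charged. For the other channel, transport and receptor lists, 15 called became 11 to 14, with 6 to 8 lower and 5 to 7 higher on leaving out 1 library. Their 8 genes that rose became 5 with deposited RPKM, 5 without the mean trend, 5 with the missing direction charged, 4 without control replicate 3 and cKO replicate 4, and 4 in the authors' table. Causes were not tested. Same-numbered libraries did not deviate together in these values (r of 0.16, 0.08, -0.11 and -0.52 for numbers 1 to 4 over 13677 genes). Because a factor was removed from the values, these r cannot show whether the numbers mark shared litters, and pairing is unknown. The replicate block gave 1199 genes and ended 1 channel call, Kcnj4 (limma adjusted p = 0.0567). Signs reversed only for 4 named genes near 0, none of them called. Without control replicate 3 and cKO replicate 4, Kcnj9 was at -0.014 and Kcnj2 at -0.019. Leaving out 1 library gave -0.0074 to 0.082 for Kcnj9, -0.0093 to 0.136 for Kcnj2, -0.054 to 0.114 for Kcnn1 and -0.073 to 0.147 for Kcng1.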
